A study of Bos taurus with 16 samples.

Results

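The 35 genes described here carry glucose into the cell, break it down to pyruvate and lactate, export the lactate, or belong to the oxygen-sensing pathway of the hypoxia-inducible factors (HIF) and its usual targets. They were chosen by name. All 35 were among the 18705 genes listed for the series, and all 35 passed the filter on low values, which kept the 14122 genes that reached 10 normalized counts in 4 or more of the 16 samples. The lowest value of any of the 35 in any sample was 46.6, so none passed through a single group.

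The samples were 16 cultures of bovine luteal cells, dissociated from corpora lutea taken surgically from cycling cattle in mid-cycle, when the gland is mature. Every culture, controls included, received luteinizing hormone (LH) at 10 ng/mL. The 4 groups of 4 samples were control (nothing added), interferon tau at 1 ng/mL (IFNT), prostaglandin F2 alpha at 10 ng/mL (PGF2A), and both agents at those doses (IFNT+PGF2A), each collected after 24 h, with triplicate wells pooled into 1 RNA sample. Samples in each group are numbered 1 to 4, and the labels do not say what a number stands for. The p-values therefore rest on the variation among these cultures, which may be technical.

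Glycolysis splits glucose into pyruvate and yields ATP without oxygen. Lactate dehydrogenase turns pyruvate into lactate, and the pyruvate dehydrogenase kinases hold pyruvate back from the mitochondria. When oxygen is low, the prolyl hydroxylases stop marking the HIF alpha subunits for destruction, and HIF then raises transcription of glucose transporters, nearly every glycolytic enzyme and genes such as CA9 and ADM. The early ruminant embryo secretes IFNT during recognition of pregnancy, and uterine PGF2A brings about regression of the corpus luteum, a heavily vascular gland that makes progesterone.

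Values are normalized counts, that is, whole reads divided by 1 size factor per sample. They compare samples for a gene and not levels between genes, since transcript length is not corrected. Depth was between 23786067 and 25906276 reads per sample. The labels call the cells mixed steroidogenic cells. The steroidogenic markers STAR (745 to 6824 normalized counts over the 16 samples) and CYP11A1 (10717 to 43704) were present in every sample, as were the fibroblast marker COL1A1 (148317 to 504114) and the endothelial marker VWF (5452 to 19120). Of the red cell markers, HBA was between 44.6 and 4174 and HBB between 0 and 1.03. Number 4 of every group stood apart from the other numbers on the second principal component, at -29.09 to -70.11 against -1.04 to 29.26, and its summed pericyte and smooth muscle markers were 223866 to 321904 against 105052 to 138356 in the other 12 samples. Its summed fibroblast markers were 886282 to 1006781, against 400675 to 779132 in the others. ACTA2 (mean 76332) and TAGLN (48581) made up most of the control pericyte and smooth muscle sum (mean 158075). COL1A1 (272433) and COL1A2 (288088) made up most of the control fibroblast sum (749813). Counts of genes called for IFNT are given with and without number 4. Genes are named where leaving it out changed their call in the fit with the sample number as a block. Changes of single genes are mostly given over all 4 numbers.

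With IFNT some genes of the pathway were lower and others higher. Averaged over cultures with and without PGF2A, PDK1 (a kinase that blocks pyruvate entry into mitochondria), PFKM (muscle-type phosphofructokinase), GPI, PKM, SLC16A1, ALDOA, HK1, PGAM1, BNIP3L and LDHB were lower, by 0.22 to 1.21 on the log2 scale. ADM (the vasodilator peptide adrenomedullin), ENO2 (neuronal-type enolase) and PFKP (platelet-type phosphofructokinase) were higher, by 0.90 to 1.38. These are 13 of 35 genes past an adjusted p of 0.05 (limma, Benjamini-Hochberg over all genes tested), 3 higher and 10 lower, which is 37.1% of the list against 38.5% of all genes. In this fit, which does not use the sample number, the share called was near the background. By direction, 28.6% of the list was called lower against 19.1% of all genes, and 8.57% higher against 19.4%. The median change of the 35 genes was -0.37, and that of all genes tested was -0.02.

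Most of the spread between cultures of a group followed the sample number, and same-numbered samples deviated together. With the number as a replicate block in limma, 29 of 35 genes (82.9%) passed for IFNT averaged over PGF2A states, beside 57.1% of all genes tested. Of these, 6 were higher (17.1% of the list, beside 27.4% of all genes) and 23 lower (65.7%, beside 29.7%). With the block the share called was thus above that of all genes. In these bulk samples, fewer cells of a type and less RNA per cell cannot be told apart. Of the steroidogenic markers 3 of 7 fell with IFNT and 0 rose (limma without the block, same contrast), and 4 fell and 0 rose with the block. Their summed level was 46413 to 78876 normalized counts in control against 30788 to 43004 with IFNT, and 34721 to 62457 with PGF2A against 22092 to 36366 with both. CYP11A1 (mean 33340) and HSD3B1 (16150) made up most of the control sum (mean 58044). Mean STAR, CYP11A1, HSD3B1 and NR5A1 were lower with IFNT in both comparisons. Mean PTGFR and INHA were higher in both, with PTGFR at 1057 in control and 1353 with IFNT. Of the endothelial markers 5 of 10 rose and 0 fell without the block, and 10 rose and 0 fell with it. Over all genes tested 19.4% rose and 19.1% fell without the block, and 27.4% and 29.7% with it. The endothelial sums were 10327 to 26786 in control, 12596 to 36437 with IFNT, 10143 to 24097 with PGF2A and 13573 to 30997 with both. The part of these cell types in the changes below was not tested.

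**Figure D1:**
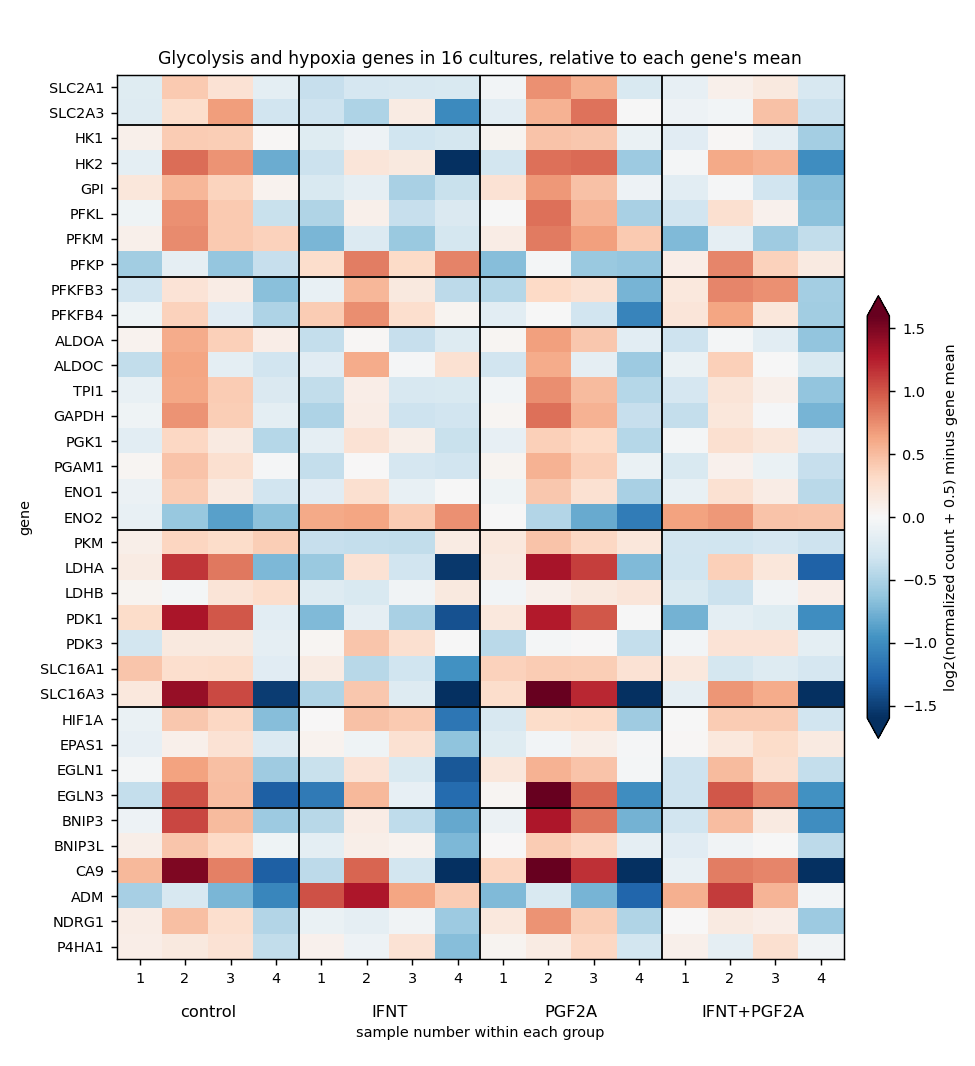
Log2(normalized count + 0.5) minus the gene's mean over 16 samples (colour, in log2 units; values beyond the ends of the scale take the end colour) for the 35 genes (rows, ordered by role) in the 16 cultures (columns, numbered 1 to 4 within each group). PFKP, ENO2 and ADM are redder in the IFNT columns, PFKM, PDK1 and GPI are bluer there, and number 2 is the highest sample of all 4 groups in 22 of the 35 rows.

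Without PGF2A in the medium, 9 of the 35 genes passed for IFNT against control (25.7%, beside 24.0% of all genes tested by limma), 3 higher and 6 lower. The median change was -0.42 against -0.04 over all genes. With the replicate block 28 passed, 5 higher and 23 lower, beside 43.5% of all genes. In the presence of PGF2A, 7 of 35 passed for IFNT+PGF2A against PGF2A (20.0%, beside 20.9% of all genes), 3 higher and 4 lower, with a median of -0.29 against -0.01. The block raised this to 23 of 35, 6 higher and 17 lower, beside 40.3% of all genes. By direction, 3 of 35 were higher in each comparison beside 13.1% and 12.3% of all genes, and 6 and 4 were lower beside 10.9% and 8.54%. With the block 5 and 6 were higher beside 21.3% and 20.9%, and 23 and 17 lower beside 22.1% and 19.5%.

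Single numbers moved these counts. Without number 3 in any group, 4, 3 and 8 of 35 genes passed in limma for IFNT against control, IFNT+PGF2A against PGF2A and the average, beside 12.8%, 10.4% and 24.7% of all genes. Without control number 2 alone 5 passed for IFNT against control, beside 19.7% of all genes. Leaving number 4 out of every group raised the counts. Without the block 12, 11 and 20 of 35 genes passed for IFNT against control, IFNT+PGF2A against PGF2A and IFNT averaged over PGF2A states, beside 29.7%, 26.0% and 43.9% of all genes tested in limma. With the block and without number 4 there were 30, 29 and 32, beside 56.1%, 53.7% and 66.7%. Of the 32 genes, 8 were higher (beside 32.5% of all genes) and 24 lower (beside 34.3%). The genes that passed with the block only once number 4 was left out were PFKFB3 and ENO1 for IFNT against control, and SLC2A1, HIF1A, EPAS1, EGLN1, EGLN3 and CA9 for IFNT+PGF2A against PGF2A.

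Where groups did not overlap at all, 5 genes were lower with IFNT than in control (14.3%, beside 9.87% of all genes tested) and 3 higher (8.57%, beside 12.1%). Between IFNT+PGF2A and PGF2A, 4 were lower (11.4%, beside 14.2%) and 3 higher (8.57%, beside 15.7%).

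Comparing each IFNT culture with the culture of the same number that lacked it gives 8 comparisons per gene, 4 without and 4 with PGF2A. In 19 of 35 genes (54.3%) IFNT was lower in 8 of 8, beside 24.4% of all genes tested. They were SLC2A1, HK1, GPI, PFKM, ALDOA, TPI1, GAPDH, PGAM1, PKM, LDHA, LDHB, PDK1, SLC16A1, SLC16A3, EGLN1, BNIP3, BNIP3L, CA9 and NDRG1. In 6 genes (17.1%, beside 21.8% of all genes) IFNT was higher in 8 of 8, namely PFKP, PFKFB3, PFKFB4, ENO2, PDK3 and ADM.

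**Figure D2:**
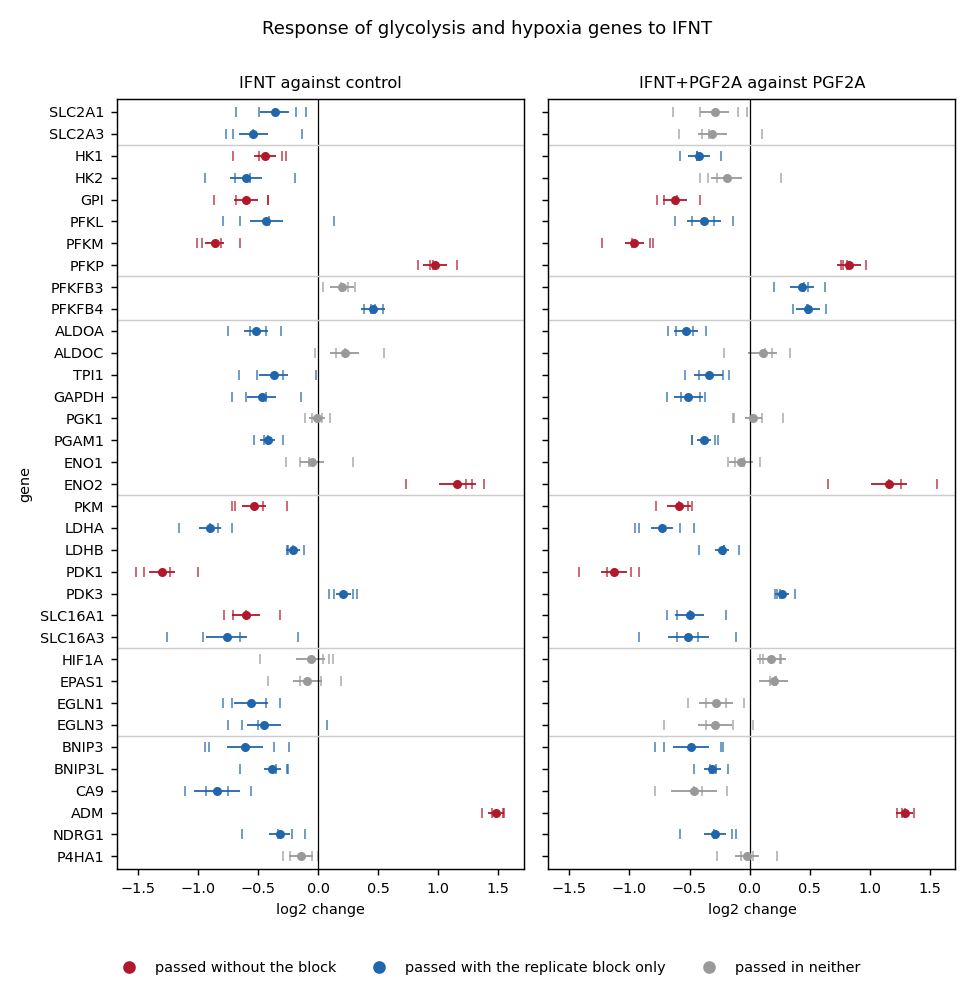
Log2 change with IFNT for each gene (x axis, log2 units), without PGF2A on the left and with PGF2A on the right. Points are limma estimates, horizontal bars are the standard error with the replicate block, vertical ticks are the 4 same-number differences, and colour shows in which fit the adjusted p was under 0.05. PDK1 lies lowest, at -1.30 and -1.13, and ADM and ENO2 lie highest, between 1.16 and 1.48.

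Glucose transport came first in the order of the pathway. SLC2A1, the basal glucose transporter GLUT1, had 5471, 8324, 7327 and 5630 normalized counts in control samples 1 to 4 and 4836, 5211, 5224 and 5260 with IFNT. With PGF2A it had 6086, 10343, 9246 and 5273, and with both agents 5687, 6628, 6954 and 5214. Control and IFNT samples did not overlap, with the lowest control at 5471 and the highest IFNT sample at 5260, whereas the other pair of groups overlapped. Numbers 2 and 3 were high in control and not with IFNT. The change averaged -0.33 ± 0.14 (log2, SE), with adjusted p = 0.071 in limma and 0.0058 with the block. SLC2A3, the high-affinity transporter GLUT3, averaged 3887 ± 1261 in control, 2683 ± 869 with IFNT, 4490 ± 1509 with PGF2A and 3544 ± 879 with both (SD, n = 4 each). Its change with IFNT was -0.42 ± 0.20, with adjusted p = 0.11 in limma and 7.3e-04 with the block. In the presence of PGF2A neither transporter passed over all 4 numbers, with or without the block, and SLC2A1 passed with the block and without number 4 (-0.38, adjusted p = 0.0046, limma).

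Hexokinase traps glucose in the cell as its phosphate. HK1, the housekeeping form, had 9288, 11597, 11499 and 8906 normalized counts in control and 7695, 8268, 7034 and 7236 with IFNT, and those groups did not overlap. With PGF2A the values were 9073, 12059, 11827 and 8116, and with both agents 7700, 8862, 7929 and 5993. HK1 fell by 0.43 ± 0.10 (log2, limma, adjusted p = 0.0038), a call lost when number 3 was left out of every group. HK2, the inducible form and a HIF target, ranged from 519 to 3212 over the 16 samples, and within every group numbers 2 and 3 were the high samples and number 4 the low one. Its change was -0.40 ± 0.36, with adjusted p = 0.41 in limma. With the block the adjusted p was 0.0020 averaged over PGF2A states, 0.0019 without PGF2A and 0.25 with it.

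GPI interconverts glucose and fructose phosphates and is the only gene of the list for its step. Control samples had 16856, 21472, 19004 and 15492 normalized counts and IFNT samples 12589, 13411, 10363 and 11590. With PGF2A they had 17502, 23993, 20600 and 14012, and with both agents 13192, 14674, 12072 and 9264. Every IFNT sample was below every control sample, while number 4 with PGF2A lay below number 2 with both agents. GPI fell by 0.61 ± 0.12 (limma, adjusted p = 8.7e-04), and by 0.60 and 0.62 in the absence and presence of PGF2A.

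Phosphofructokinase commits sugar to glycolysis, and its 3 genes went different ways. PFKM had 763, 1219, 965 and 934 normalized counts in control and 435, 621, 479 and 597 with IFNT, then 786, 1284, 1144 and 963 with PGF2A and 442, 653, 487 and 552 with both. PFKP had 2530, 3378, 2420 and 2880 in control and 4510, 6566, 4595 and 6441 with IFNT, then 2327, 3650, 2460 and 2430 with PGF2A and 3998, 6416, 4824 and 4119 with both. In both genes the groups with IFNT lay wholly outside those without it, PFKM below and PFKP above.

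PFKM fell by 0.91 ± 0.13 (log2, limma, adjusted p = 4.0e-05), to 0.532 times its level. PFKP rose by 0.90 ± 0.13 (limma, adjusted p = 6.2e-05), to 1.87 times its level. PFKL, the liver-type gene, ranged from 4578 to 9742 in control and from 4208 to 6211 with IFNT, and its change was -0.41 ± 0.21 with adjusted p = 0.14 in limma and 0.0041 with the block. Within a sample, the PFKP/PFKM ratio was 1.83 higher with IFNT than in control and 1.79 higher with both agents than with PGF2A (log2 differences of group means). Each of the 8 same-number differences was 1.57 or more. This ratio was singled out after its values had been seen, so no test is given.

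PFKFB3 and PFKFB4 encode enzymes that make and remove the sugar phosphate that activates phosphofructokinase. PFKFB4 had 303, 411, 281 and 226 normalized counts in control and 421, 533, 381 and 328 with IFNT, then 283, 316, 257 and 153 with PGF2A and 362, 492, 359 and 215 with both. The groups overlapped, but each IFNT culture was above the culture of its own number. The change was 0.48 ± 0.19 with adjusted p = 0.059 in limma and 6.9e-05 with the block. PFKFB3 was 0.32 ± 0.22 higher, with adjusted p = 0.28 in limma and 0.0012 with the block. With the block it passed in the presence of PGF2A (0.44, adjusted p = 0.0022, limma) and not in its absence (0.20, adjusted p = 0.11; 0.18 and 0.047 without number 4), and the interaction had adjusted p = 1.00.

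Aldolase splits the sugar into triose phosphates. ALDOA, the ubiquitous form, averaged 33939 ± 6042 normalized counts in control, 23605 ± 3171 with IFNT, 33281 ± 8495 with PGF2A and 22760 ± 3916 with both (SD, n = 4 each). The control samples, 28567 to 41618, lay above the IFNT samples, 21220 to 27976, and the pair of groups with PGF2A overlapped. ALDOA fell by 0.52 ± 0.13 (limma, adjusted p = 0.0049), a call lost when number 3 was left out. ALDOC, the brain-type form, changed by 0.17 ± 0.18 with adjusted p = 0.51 in limma and 0.096 with the block.

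GAPDH, which makes the first high-energy triose and often serves as a reference gene, had 96964, 166349, 132657 and 90495 normalized counts in control and 71840, 109947, 80691 and 81849 with IFNT. It had 103123, 186674, 148314 and 78178 with PGF2A and 77771, 115321, 99819 and 60623 with both. The groups overlapped in both comparisons, yet every IFNT culture lay below its own number. The change was -0.49 ± 0.20 with adjusted p = 0.059 in limma and 2.0e-04 with the block.

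TPI1, which interconverts the triose phosphates, changed by -0.35 ± 0.18 with adjusted p = 0.14 in limma and 0.0027 with the block. PGAM1, a phosphoglycerate mutase, fell by 0.40 ± 0.11 (limma, adjusted p = 0.0090), a call that leaving out number 3 ended. PGK1, the first ATP-yielding enzyme of the pathway and a widely used HIF target, averaged 20497 ± 4807 in control and 20208 ± 3523 with IFNT, and 21625 ± 5682 with PGF2A and 21554 ± 2914 with both (SD, n = 4 each). Its change was 0.01 ± 0.14 (limma, adjusted p = 0.97; 0.89 with the block).

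Enolase makes the last intermediate before pyruvate. ENO1, the ubiquitous form, changed by -0.06 ± 0.15 with adjusted p = 0.79 in limma and 0.52 with the block, and passed as lower (-0.14, adjusted p = 0.0071) with the block and without number 4. ENO2 had 518, 368, 307 and 357 normalized counts in control and 858, 867, 747 and 933 with IFNT, then 560, 406, 321 and 259 with PGF2A and 879, 909, 772 and 764 with both. All 8 cultures with IFNT lay above all 8 without it. ENO2 rose by 1.16 ± 0.14 (limma, adjusted p = 9.3e-06), to 2.23 times its level.

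In pairs of isoenzyme genes, the ENO2/ENO1 ratio was 1.21 higher with IFNT and 1.23 higher with both agents against PGF2A (log2), and the ALDOC/ALDOA ratio 0.74 and 0.64 higher. Each of these had p = 0.0286 in a two-sided exact permutation test of 4 against 4, the smallest such a test can give, and adjusted p = 0.0857 over 12 tests. All 4 same-number differences pointed up in each of the 4 comparisons. The LDHA/LDHB ratio was lower in all 4 numbers, by 0.69 and 0.50 (exact permutation p = 0.343 and 0.486, adjusted 0.814). These tests ignored the pairing by number. Paired by number, the exact permutation p was 0.125 for ENO2/ENO1, ALDOC/ALDOA and LDHA/LDHB in both comparisons. It was also 0.125 for HK2/HK1 in the presence of PGF2A. That is the smallest p 4 pairs can give, so the paired test does not rank these ratios. HK2/HK1, SLC2A3/SLC2A1 and HIF1A/EPAS1 had differences between -0.18 and 0.23, with adjusted p of 0.814 or more in the exact permutation test.

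**Figure D3:**
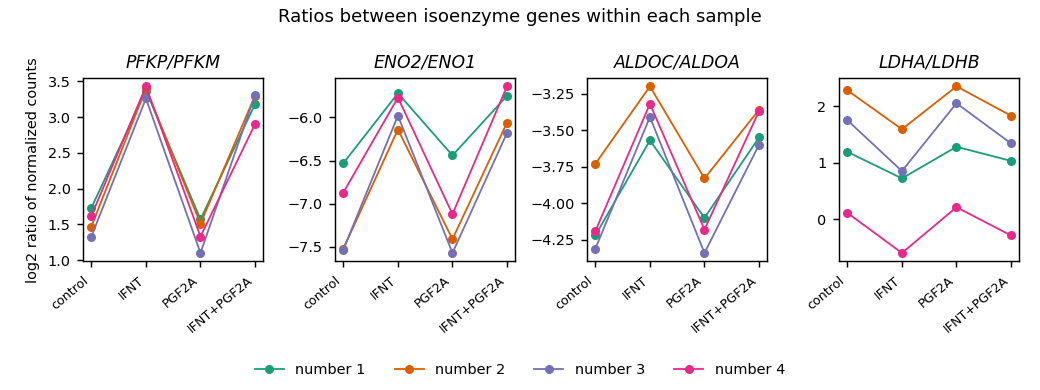
Log2 ratio of normalized counts of 2 isoenzyme genes within each sample (y axis) by group (x axis); lines join samples of the same number, and the height of a ratio reflects transcript length as well as abundance, so that only differences along a line are read. PFKP/PFKM, ENO2/ENO1 and ALDOC/ALDOA are higher with IFNT at every number, and LDHA/LDHB is lower at every number.

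PKM, which makes pyruvate, had 104093, 124023, 119927 and 128888 normalized counts in control and 75707, 75127, 74451 and 107370 with IFNT. It had 110108, 133988, 122720 and 110528 with PGF2A and 79049, 78115, 81246 and 77448 with both. With PGF2A present the groups were wide apart, and without it number 4 with IFNT reached into the control range. PKM fell by 0.56 ± 0.09 (limma, adjusted p = 1.5e-04), and only 5.08% of its variation followed the sample number, the least of the 35 genes.

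LDHA, the lactate-forming subunit of lactate dehydrogenase and a HIF target, had 11657, 23438, 19136 and 6462 normalized counts in control and 7064, 12527, 8560 and 3636 with IFNT. It had 11706, 26603, 22819 and 6514 with PGF2A and 8487, 13815, 12096 and 4351 with both. Number 2 was always the highest and number 4 always the lowest, so the groups overlapped widely, and within each number IFNT was lower, by 0.46 to 1.16. The change was -0.82 ± 0.37 with adjusted p = 0.091 in limma, and -0.82 ± 0.07 with adjusted p = 2.2e-07 with the block. LDHB, the subunit found where lactate is used, fell by 0.22 ± 0.08 (limma, adjusted p = 0.043), a call lost in 18 of 27 alternatives without the block.

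The 17 glycolytic enzyme and lactate dehydrogenase genes of the list together took 1.70, 2.41, 2.06 and 1.57% of all counted reads in control and 1.26, 1.57, 1.26 and 1.34% with IFNT. They took 1.75, 2.58, 2.19 and 1.43% with PGF2A and 1.33, 1.64, 1.46 and 1.09% with both. IFNT samples all lay below the lowest control, but number 2 with IFNT (1.57%) barely so against control number 4 (1.573%). The groups with PGF2A overlapped. At every number the share was smaller with IFNT. Counted reads are those of the 18705 genes listed for the series. GAPDH (mean 121616 normalized counts in control, 86082 with IFNT) and PKM (119233 and 83164) had the most reads of the 17 genes. The share therefore follows these 2 most and does not stand for each gene, since PGK1 and ENO1 changed little and PFKP and ENO2 rose.

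PDK1, a HIF target that restrains the pyruvate dehydrogenase complex, had 1351, 2715, 2200 and 977 normalized counts in control and 674, 994, 768 and 418 with IFNT. It had 1236, 2657, 2195 and 1099 with PGF2A and 652, 992, 964 and 555 with both. In the presence of PGF2A the groups did not overlap, and in its absence number 2 with IFNT was just above number 4 of the control. PDK1 fell by 1.21 ± 0.25 (limma, adjusted p = 0.0014), to 0.431 times its level, the largest decrease in the list. PDK3, another kinase of the complex, went the other way by 0.24 ± 0.10, with adjusted p = 0.080 in limma and 3.4e-04 with the block.

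Lactate leaves through the monocarboxylate transporters. SLC16A1 (MCT1) had 3158, 2782, 2809 and 2032 normalized counts in control and 2533, 1696, 1859 and 1180 with IFNT, then 2975, 3072, 3026 and 2710 with PGF2A and 2589, 1902, 1999 and 1918 with both. The groups with PGF2A were apart, and the others overlapped because control number 4 was low and number 1 with IFNT high. SLC16A1 fell by 0.55 ± 0.13 (limma, adjusted p = 0.0041), a call lost when number 2 was left out.

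SLC16A3 (MCT4), the HIF-induced lactate exporter, had 547, 1279, 1010 and 170 normalized counts in control and 349, 658, 422 and 151 with IFNT, then 592, 1500, 1122 and 155 with PGF2A and 440, 795, 739 and 144 with both. Number 4 was the lowest sample of every group by a wide margin. The change was -0.64 ± 0.54 with adjusted p = 0.38 in limma and 4.7e-04 with the block.

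Neither HIF alpha subunit passed in limma with or without the block. HIF1A, the main alpha subunit, had 34433, 50052, 46861 and 23285 normalized counts in control and 37355, 51570, 49876 and 16649 with IFNT. It had 31170, 45461, 46516 and 25035 with PGF2A and 36957, 49221, 49377 and 29946 with both. IFNT was higher at 7 of 8 comparisons by number and lower at number 4 without PGF2A. The change was 0.06 ± 0.24 with adjusted p = 0.87 in limma and 0.59 with the block, and 0.12 with adjusted p = 0.0088 with the block and without number 4. EPAS1 (HIF2 alpha) ranged from 3655 to 6992 over all samples, with a change of 0.06 ± 0.11 (limma, adjusted p = 0.72; 0.58 with the block) and 0.12 (adjusted p = 0.019) with the block and without number 4. HIF protein is set largely by degradation, which these counts do not measure.

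EGLN1 and EGLN3 encode prolyl hydroxylases that mark HIF for destruction, and EGLN3 is itself a HIF target. EGLN1 changed by -0.42 ± 0.23 with adjusted p = 0.16 in limma and 0.0024 with the block. EGLN3 had 469, 1240, 862 and 246 normalized counts in control and 278, 876, 556 and 259 with IFNT, then 624, 1985, 1153 and 305 with PGF2A and 485, 1211, 1048 and 312 with both. Number 4 was low in every group and slightly higher with IFNT, while numbers 1 to 3 were lower with it. The change with IFNT was -0.37 ± 0.44 with adjusted p = 0.54 in limma and 0.0056 with the block.

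Of the remaining HIF targets, ADM had 2830, 3415, 2463 and 1983 normalized counts in control and 8238, 10001, 6330 and 5428 with IFNT, then 2497, 3434, 2439 and 1688 with PGF2A and 6034, 8864, 5958 and 3951 with both. All 8 cultures with IFNT were above all 8 without it, and the same-number differences were close together, from 1.23 to 1.55. ADM rose by 1.38 ± 0.19 (limma, adjusted p = 2.5e-05), to 2.61 times its level, the largest increase in the list.

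CA9, the cell-surface carbonic anhydrase that is among the most HIF-dependent genes known, had 314, 620, 385 and 88.4 normalized counts in control and 164, 420, 179 and 52.3 with IFNT, then 279, 670, 497 and 53.1 with PGF2A and 202, 387, 377 and 46.6 with both. Number 4 was far below the others in every group, and IFNT was lower at every number. The change was -0.65 ± 0.62 with adjusted p = 0.44 in limma and 0.0012 with the block. BNIP3 and BNIP3L, which mark mitochondria for removal, changed by -0.55 ± 0.31 (limma, adjusted p = 0.18; 7.0e-04 with the block) and by -0.35 ± 0.13 (adjusted p = 0.042), and the BNIP3L call was lost in 14 of 27 alternatives without the block.

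NDRG1, a stress-response gene, changed by -0.30 ± 0.18 with adjusted p = 0.19 in limma and 0.0016 with the block. P4HA1, a subunit of collagen prolyl hydroxylase, changed by -0.08 ± 0.13 with adjusted p = 0.67 in limma and 0.33 with the block. So among the 6 targets outside glycolysis and oxygen sensing, ADM was called higher, BNIP3L lower, 3 more were called lower with the block only, and P4HA1 was called in neither fit.

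**Figure D4:**
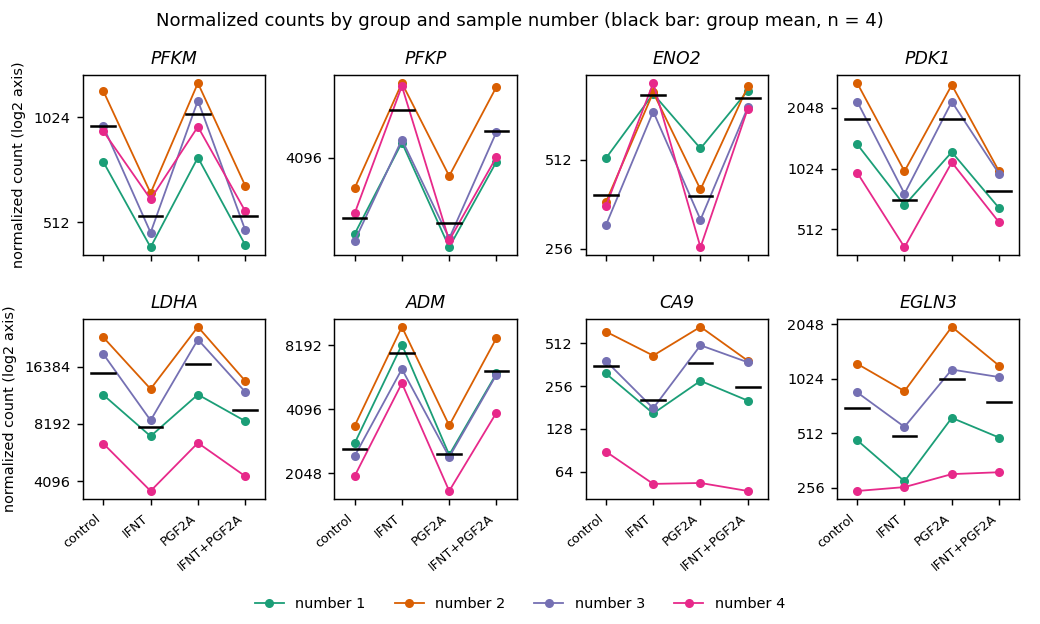
Normalized counts (y axis, log2 scale) of 8 genes in the 4 groups (x axis); colours mark the sample number, lines join the same number and black bars are group means (n = 4). PFKM, PDK1, LDHA and CA9 drop and PFKP, ENO2 and ADM climb with IFNT at every number. LDHA, CA9 and EGLN3 differ more between numbers than between groups.

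None of the 35 genes passed for PGF2A. For PGF2A against control 0 of 35 passed (0.0% of all genes tested in limma; 155 of them had an unadjusted p under 0.05). For IFNT+PGF2A against IFNT 0 of 35 passed (0.00708% of all genes; 356 unadjusted). With the block these remained 0 of 35, beside 0.163% and 0.701% of all genes, with 866 and 1380 genes at an unadjusted p under 0.05. The median change of the list was 0.01 without IFNT and 0.09 with it, against -0.00 and 0.01 over all genes.

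EGLN3 had the largest change with PGF2A, 0.45 alone and 0.61 on top of IFNT, with block standard errors of 0.14 and adjusted p = 0.41 and 0.082 (limma with the block). It was higher in 8 of 8 same-number comparisons, by 0.27 to 0.91. SLC2A3 and LDHA were also higher in 8 of 8, making 3 of 35 (8.57%, beside 3.41% of all genes tested), and PFKFB4 and PDK3 were lower in 8 of 8 (5.71%, beside 2.83%). With the block and without number 4, EGLN3 passed as higher with PGF2A alone (0.50, adjusted p = 0.020, limma), 1 gene of 35 beside 0.68% of all genes (0.418% higher, 0.262% lower). In the same fit EGLN3 (0.73, adjusted p = 0.0011), PFKFB3 (0.37, adjusted p = 0.017) and SLC16A3 (0.47, adjusted p = 0.045) passed as higher when PGF2A was added to IFNT, 3 of 35 beside 2.37% of all genes in either direction and 1.62% higher.

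The response to IFNT did not differ detectably between cultures with and without PGF2A. For the interaction 0 of 35 genes passed (0.0% of all genes tested in limma, with and without the block; 40 and 219 genes at an unadjusted p under 0.05). The interaction estimates ran from -0.19 for ADM to 0.40 for HK2, with block standard errors of 0.10 and 0.18. Without and with PGF2A, the change with IFNT was 1.48 and 1.29 in ADM, 1.16 and 1.16 in ENO2, 0.97 and 0.83 in PFKP, -1.30 and -1.13 in PDK1 and -0.86 and -0.96 in PFKM.

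At the median of these genes, the sample number held a larger uncorrected share of the variation than either agent. The number has more levels than an agent, so noise alone would give the number a larger share. The shares below, and the count of genes in which the number exceeded IFNT, were not corrected for this. Of the total sum of squares, the number held a median of 58.8% over the 35 genes and 35.5% over all genes tested, IFNT 24.5% and 22.6%, and PGF2A 1.42% and 2.31%. In 24 of 35 genes (68.6%, beside 60.0% of all genes) the number held more than IFNT. PGK1 (90.9%), CA9 (89.0%), HIF1A (87.3%) and SLC16A3 (87.1%) stood at that end, and PKM, ENO2 (9.11%), PFKP (17.9%) and PFKM (18.1%) at the other.

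The order of the numbers was shared. Number 2 was the highest sample in all 4 groups in 22 of 35 genes (62.9%, beside 7.61% of all genes), and number 4 the lowest in all 4 in 15 (42.9%, beside 8.16%). Between the highest and the lowest number the mean differed by 3.12 on the log2 scale in CA9, 2.69 in SLC16A3, 2.19 in EGLN3, 1.84 in LDHA and 1.66 in HK2. The summed red cell and neutrophil markers ran the same way, 3078 to 5870 normalized counts in number 2 and 561.6 to 932.5 in number 4, and the pericyte markers were highest in number 4. The red cell part of that sum rested on HBA, which reached 4174. The other red cell markers HBA1, ALAS2 and HBB reached only 25.7, 2.80 and 1.03. The fibroblast markers ran the opposite way, with sums of 400675 to 551157 in number 2 and 886282 to 1006781 in number 4. The steroidogenic markers summed to 36366 to 78876 in number 2 and 22092 to 46413 in number 4. Their part in the order of the numbers was not tested.

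**Figure D5:**
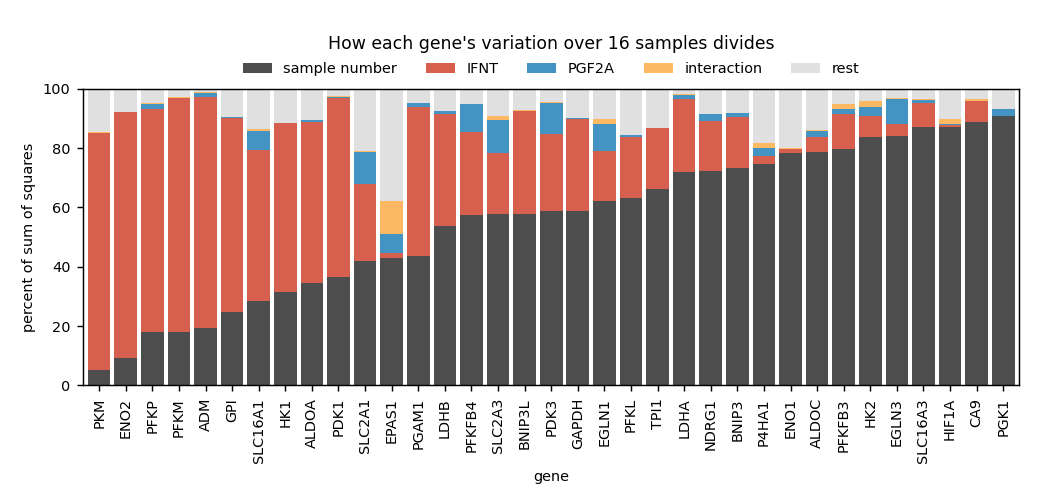
Percent of each gene's sum of squares over 16 samples (y axis, log2 values) that goes with the sample number, IFNT, PGF2A, their interaction and the rest, with genes ordered by the share of the number (x axis). PKM, at 5.08%, has the smallest share of the number and PGK1, at 90.9%, the largest.

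Genes that neighbour these pathways were read from lists of other members. Of 18 other genes of glycolysis and gluconeogenesis, 6 rose and 3 fell with IFNT averaged over PGF2A states (limma; 8 and 4 with the block). Over all genes tested in this contrast 19.4% rose and 19.1% fell, and 27.4% and 29.7% with the block, and the counts of the lists that follow stand beside the same shares. ADPGK, an ADP-dependent glucokinase, rose by 1.39, from 1537 ± 248 to 4007 ± 415 normalized counts without PGF2A and from 1516 ± 203 to 3970 ± 351 with it (SD, n = 4). PKLR, the liver and red cell pyruvate kinase, rose by 2.29 from 30.8 ± 8.25 in control to 170 ± 53.3 with IFNT, and TIGAR, a phosphatase that opposes phosphofructokinase, rose by 1.21 from 62.8 ± 21.6 to 142 ± 24.4. PGAM5, a mitochondrial phosphatase and not an enzyme of glycolysis, rose by 0.48.

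Of 13 genes for the entry of pyruvate into mitochondria, 2 rose and 6 fell (2 and 9 with the block), beside 19.4% and 19.1% of all genes (27.4% and 29.7%). PDHB, a subunit of pyruvate dehydrogenase, fell by 0.59, from 1036 ± 43.5 to 697 ± 55.6 normalized counts (SD, n = 4). PDK2 fell by 0.79 and PC, which makes oxaloacetate from pyruvate, by 0.65, whereas PDK4, a starvation-induced kinase, rose by 1.12. The 4 pyruvate dehydrogenase kinase genes thus split, with PDK1 and PDK2 lower, PDK4 higher, and PDK3 higher with the block only.

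Of 7 genes of the pentose phosphate pathway, 2 rose and 0 fell (2 and 1 with the block), TALDO1 by 0.41 and PGLS by 0.20. Of 9 glycogen genes, 1 rose and 3 fell (2 and 4 with the block), with the phosphorylases PYGB and PYGL lower by -0.75 and -0.49. Of 12 further regulators of HIF, 1 rose (CREBBP, a coactivator, by 0.21) and 2 fell (2 and 5 with the block), including ARNT2, a partner subunit, with a change of -0.98.

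Of 31 further genes known to respond to hypoxia, 4 rose and 8 fell (7 and 15 with the block), beside 19.4% and 19.1% of all genes (27.4% and 29.7%). IGFBP3, which binds insulin-like growth factors, rose by 1.39, from 2235 ± 709 to 5704 ± 1439 normalized counts, and PLOD2, a collagen lysyl hydroxylase, fell by 0.86, from 48014 ± 8893 to 25348 ± 3874 (SD, n = 4). TXNIP, which restrains glucose uptake, rose by 0.72. The median change of these 31 genes was -0.13, beside -0.02 over all genes. In each of these lists 0 genes passed for PGF2A against control and for the interaction (limma, with and without the block). For IFNT+PGF2A against IFNT 0 passed in limma without the block. With the block 1 of these 31 genes rose, beside 0.552% of all genes, and 0 passed in the other lists.

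In the authors' deposited table for IFNT against control, 10 of the 35 genes were called, 3 higher and 7 lower, beside 18.6% of the genes it lists, and in the authors' deposited table for IFNT+PGF2A against PGF2A also 10, beside 28.6%. Both of the authors' deposited tables of PGF2A comparisons called 0 of 35, beside 0.0275% and 0.0496%.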

How the data were processed

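RNA was measured in 16 cultures (4 groups of 4). Alignment and counting tools are, per the submitters' processing notes, HISAT2 (2.0.4), RSEM (1.2.8), Bowtie2 (2.2.5) and DESeq2. For the build, annotation and strand setting, the sources used here give nothing. Since RSEM divides reads of ambiguous origin between genes, GAPDH, PGK1, LDHA, PGAM1, TPI1, ENO1, ALDOA and PKM, which have processed copies in mammalian genomes, are uncertain to that degree.

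Per the file headers, the deposited table holds a normalized signal per gene and sample, and its values came out as whole reads divided by 1 size factor per sample (0.963 to 1.071). Within the tolerance, 100% of values were whole numbers of reads. The tolerance was 0.01 reads and widened in proportion to the count for very high values. The authors also deposited log2 fold changes and adjusted p-values of their own comparisons. Samples were grouped by title. Symbols are those of the table, and 17768 identifiers matched RefSeq. No sequences were used here.

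The main test was limma 3.58.1 (R 4.3.3) with an intensity trend on log2(normalized count + 0.5), 1 mean per group, 6 contrasts, and Benjamini-Hochberg adjustment over 14122 genes at 0.05. A fold change on that scale slightly understates change in low genes. Contrasts share samples. Alternatives were the replicate block, each replicate or number left out, edgeR 4.0.16 and DESeq2 1.42.0 on the recovered reads, TMM scaling, pseudocounts of 1 and 8, no filter, no trend, and only the groups compared. Scripts were tested on simulated data.

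Pairing by number comes from the data: deviations from group means correlated at 0.352 to 0.719 in the 24 same-number pairs, against at most 0.0402 in the 72 others, and 16 of 16 samples correlated best with their own number. The block is therefore given beside results whose call it changes.

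All 35 genes were described, and other genes by list, named where they passed for IFNT averaged over PGF2A states, at most 4 per list with the smallest p. Members and lists were chosen with earlier results of these data known. Marker lists gave, for IFNT averaged over PGF2A states, 2 higher and 0 lower of 9 pericyte genes tested in limma (5 and 1 with the block). They gave 2 and 1 of 7 fibroblast genes (4 and 3) and 3 and 0 of 7 macrophage genes (4 and 1). For 3 lymphocyte genes the counts were 2 and 0 in both fits, and for 5 red cell and neutrophil genes 0 and 0 (2 and 1). Over all genes tested 19.4% were higher and 19.1% lower, and 27.4% and 29.7% with the block.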

Additional observations from a re-analysis of the deposited data

Results flagged for a closer look

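Of 140 sets of 4 replicates (35 genes in 4 groups), 5 held a sample far from the other 3 by Dixon's test. Chance alone flags about 1 in 20 sets. Number 4 with IFNT had 107370 normalized counts of PKM against 74451 to 75707 in the others. The same sample had the lowest NDRG1 of its group, 4801 against 6467 to 6875. Number 1 with IFNT had the lowest SLC2A1, 4836 against 5211 to 5260, a small gap in absolute terms. Number 2 with PGF2A had the highest PFKP, 3650 against 2327 to 2460. Number 1 with IFNT+PGF2A had the highest SLC16A1, 2589 against 1902 to 1999.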

How the results depend on the processing

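The number of genes called moved both with the replicate block and with single numbers left out. Over all genes tested, limma called 3384 for IFNT against control, 2948 for IFNT+PGF2A against PGF2A, 5444 for IFNT averaged over PGF2A states, 0 for PGF2A against control and 1 for IFNT+PGF2A against IFNT. With the replicate block the counts were 6140, 5696, 8062, 23 and 99, and edgeR with the replicate block gave 6126, 5740, 28 (PGF2A against control) and 91 (IFNT+PGF2A against IFNT). Of the 35 genes, 28, 23 and 29 passed in the 3 IFNT contrasts with the block, in limma and in edgeR alike. IFNT against control gave 2118 genes with only those groups fitted. PGF2A against control gave 2 genes with no filter and 2 with DESeq2, and IFNT+PGF2A against IFNT gave 9 with DESeq2.

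Leaving out a library or number gave 1809 to 4273 genes for IFNT against control, 1463 to 4094 for IFNT+PGF2A against PGF2A, 3489 to 6431 for IFNT averaged over PGF2A states, 0 to 1 for PGF2A against control and 0 to 2 for IFNT+PGF2A against IFNT. Of the 35 genes it gave 4 to 12, 3 to 11 and 8 to 20 in the IFNT contrasts, the lowest each time without number 3 and the highest without number 4. Without control replicate 2 alone, 5 passed for IFNT against control. With the block and a number left out, up to 7925 genes passed for IFNT against control, 7587 for IFNT+PGF2A against PGF2A and 9422 for IFNT averaged over PGF2A states, 0 to 96 for PGF2A against control (4 without number 3) and 0, 0, 10 and 334 for IFNT+PGF2A against IFNT without numbers 1 to 4. Of the 35 genes, in the same order of numbers, 22, 21, 20 and 30 passed for IFNT against control, beside 34.4%, 30.6%, 30.3% and 56.1% of all genes. The counts were 21, 15, 16 and 29 in the presence of PGF2A, beside 30.7%, 27.8%, 26.8% and 53.7%. They were 28, 27, 28 and 32 for IFNT averaged over PGF2A states, beside 48.3%, 45.2%, 44.6% and 66.7%, with 1 for PGF2A against control and 3 for IFNT+PGF2A against IFNT without number 4. The cause of these differences was not tested.

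Genes with small changes, among them HIF1A, EPAS1, PGK1 and ENO1, were not followed through the alternatives without the block. With the block and without number 4, HIF1A for IFNT against control was 0.08 and not -0.06. EPAS1 was 0.02 and not -0.09. Of the single-gene results that were followed, 1 changed sign. SLC16A3, IFNT+PGF2A against PGF2A, was -0.51, with a range of -1.18 (without PGF2A replicate 4) to 0.02 (without IFNT+PGF2A replicate 4). For IFNT averaged over PGF2A states, PFKM, PFKP, ENO2, GPI, PKM, PDK1 and ADM kept their call in all 27 alternatives without the block. Depth was even across samples and the lowest value of any of the 35 genes was 46.6 normalized counts.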
